A study of Mus musculus with 4 samples.

Results

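Barcodes rich in Tnfaip6 were described in 2 single-nucleus RNA libraries of mouse skin wounds collected 1 day after injury (1dpw). A barcode stands for 1 droplet, and a unique molecular identifier (UMI) for 1 captured RNA molecule. The rule took wounded barcodes with at least 100 genes, at most 5% of UMIs from mitochondrially encoded genes and at least 2 Tnfaip6 UMIs, and they are called Tnfaip6-high here. It found 206 of 4621 barcodes in wounded replicate 1 and 338 of 16075 in wounded replicate 2, together 544 of 20696 wounded barcodes and of 37499 passing barcodes in all 4 libraries. All 4 mice were wild-type C57BL/6, an inbred laboratory strain, aged 8 weeks. Intact back skin came from 2 unwounded mice, and the other 2 mice had an excisional wound through the whole thickness of the back skin. Each mouse gave 1 library, made from nuclei freed by grinding, and the labels give the cells as mixed skin cells and name no sort or gate.

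Tnfaip6 encodes TSG-6, a secreted protein that cells make in response to TNF and IL-1. TSG-6 binds hyaluronan, a long sugar chain of the matrix, and moves heavy chains from inter-alpha-inhibitor onto it, which cross-links the chains. In early wounds a provisional matrix of fibrin, fibronectin, hyaluronan and tenascin-C fills the defect while neutrophils and monocytes arrive, and fibroblasts at the margin are a known source of both matrix and chemokines.

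The barcodes were chosen by their Tnfaip6 UMIs, so Tnfaip6 values are given as a description, without a test. The Tnfaip6-high barcodes held 1011 and 1323 Tnfaip6 UMIs in wounded replicates 1 and 2, with a median of 3 per barcode in each. Barcodes with exactly 2 UMIs, just inside the threshold, numbered 64 and 141, and those with 1 UMI, just outside it, 221 and 768. At the upper end, 22 and 19 barcodes held 10 or more. A further 1 and 26 barcodes had at least 2 Tnfaip6 UMIs but did not pass the filter on genes and mitochondrial UMIs.

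The same rule met few barcodes of intact skin. It held for 4.46% (exact 95% binomial interval 3.88 to 5.09) and 2.10% (1.89 to 2.34) of wounded barcodes, and for 34 of 6964 (0.488%, 0.338 to 0.682) and 18 of 9839 (0.183%, 0.108 to 0.289) unwounded barcodes. The unwounded libraries were deeper, with medians of 906 and 469 UMIs per barcode against 236 and 167. With every barcode thinned to 150 UMIs, the shares were 2.83% of 4524 and 1.75% of 9938 wounded barcodes, against 0.0144% and 0% of unwounded ones. Thinning left out 97 and 6137 shallower wounded barcodes and no unwounded one, and the 0 of 9839 allows a share of up to 0.0375%. These intervals cover counting error only. No barcode sequence was Tnfaip6-high in more than 1 library, although wounded replicates 1 and 2 shared 25 barcodes in all.

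Tnfaip6-high barcodes differed from the other wounded barcodes in their makeup before any single gene is considered. Malat1, a long non-coding RNA held in the nucleus, was missing from 25.7% and 24.3% of them but from 74.5% and 65.1% of the others. Depth differed less, with medians of 246 and 210.5 UMIs in the Tnfaip6-high and 236 and 167 in the others. A background that follows gene length was assumed and not tested. It was gauged by the 1465 olfactory and vomeronasal receptor genes, which are used mainly in sensory neurons. They reached 0.263 and 0.363 CPM (UMIs of a gene or list per 1000000 UMIs of the summed barcodes) per kilobase in Tnfaip6-high sums, 0.523 and 0.475 in the others, and 0.00737 and 0.0103 in unwounded skin. Spread over the length of every gene, that density would make up 32.7% and 45.1% of Tnfaip6-high UMIs and 65.0% and 59.0% of the others' UMIs. What remained was 1.92-fold and 1.34-fold larger in the Tnfaip6-high, so a gene at the same level within that remainder would show these ratios in CPM. Some genes therefore also have their CPM divided by the CPM expected from gene length at the receptor density of the same sum, a ratio called observed over length-expected.

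The fibroblast list was the only marker list whose sum stood higher in the Tnfaip6-high of both libraries. Its 20 genes summed to 5922 and 5056 CPM in the Tnfaip6-high, against 2707 and 2741 CPM in the others. Pdgfrb alone gave 1661 and 1345 CPM of these sums, against 286 and 314 CPM in the others. Fbn1, whose level is given below, gave another large part. Of the 20 genes, 13 had log2 fold changes above 0 in the test described below. The part of the unequal background in the list sums was not tested. A barcode was said to be led by a list when it had at least 2 UMIs of that list and more than of any other of 12 lists. The fibroblast list led 92 of 206 (44.7%) and 108 of 338 (32.0%) Tnfaip6-high barcodes, against 19.2% and 11.4% of the others. In wounded replicate 1 the markers Dpt, Mfap5 and Abca8a had no UMI in Tnfaip6-high barcodes, and in replicate 2 Dpt had none. Keratinocyte markers summed to 909 and 1267 CPM against 1356 and 1865 in the others and led 5 and 13 Tnfaip6-high barcodes. Markers of blood and lymphatic endothelium summed to 423 and 567 CPM against 865 and 843. The macrophage and monocyte list gave 470.0 and 411 CPM against 563 and 559, with Cd68, Cd163, C1qa, C1qb, Ccr2 and Ms4a7 at 0 in both Tnfaip6-high sums. A count of 0 allows up to 47.0 and 33.3 CPM there, and Cd68 was also at 0 in the others of replicate 1. Neutrophil markers gave 188 and 378 CPM against 261 and 330.3, with Cxcr2, G0s2, Lcn2, Ngp and Trem1 at 0 in both. Log2 fold changes lay above 0 for 4 of 8 tested macrophage and monocyte markers and 4 of 7 tested neutrophil markers. The same held for 4 of 13 tested keratinocyte and 0 of 11 tested endothelial markers. The part that other cells' RNA has in the gene results was not tested.

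**Figure D1:**
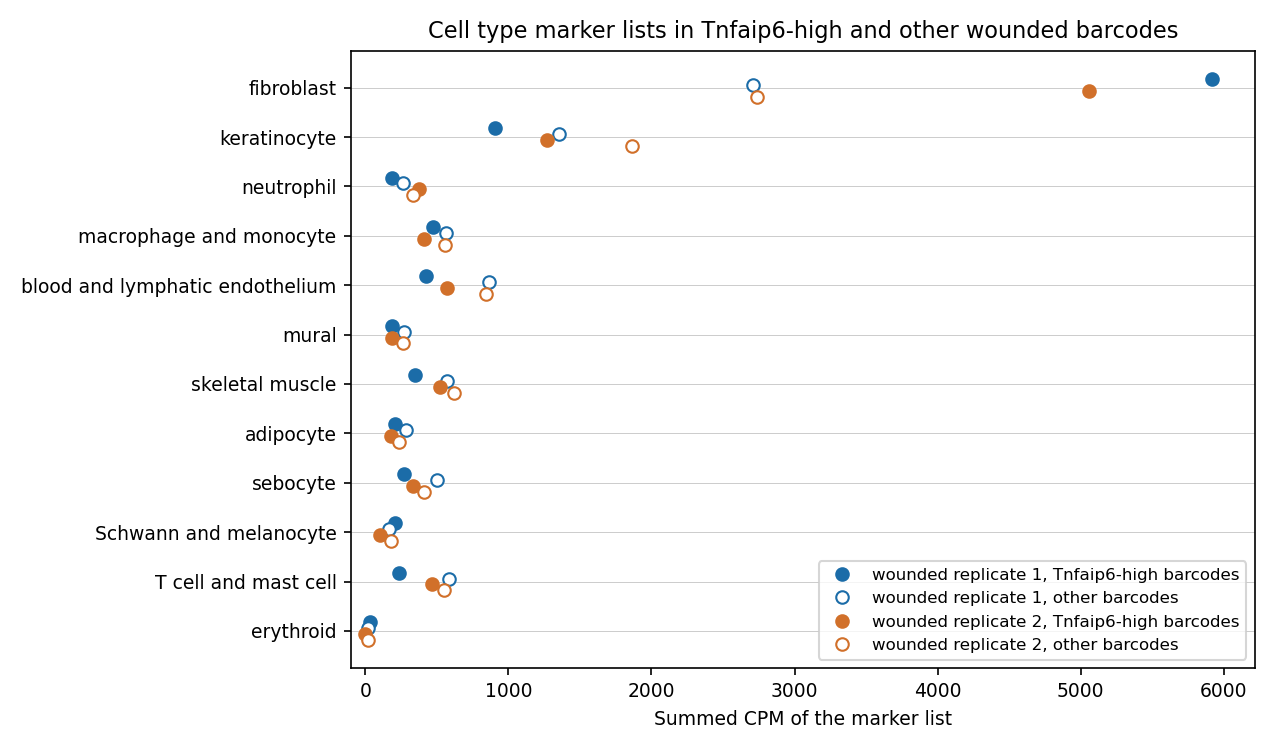
Summed CPM (x axis) of 12 cell type marker lists (rows) in Tnfaip6-high barcodes (filled points) and other barcodes (open points) of the 2 wounded libraries (colours). The fibroblast list lies at 5922 and 5056 CPM in the Tnfaip6-high against 2707 and 2741 CPM in the others, while the keratinocyte and endothelium lists lie lower in the Tnfaip6-high of both libraries.

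Which genes went with Tnfaip6 within the same wound was asked by comparing Tnfaip6-high barcodes with all other wounded barcodes of the same library. Tnc, the gene of the matrix protein tenascin-C, the phosphate hormone gene Fgf23, the co-receptor and receptor genes Tgfbr3 and Pdgfrb and the enzyme genes Cyp7b1 and St6galnac5 were among the largest rises. The matrix genes Sparc, Fbn1, Dcn and Col3a1, the interleukin-1 receptor gene Il1r1 and the alarmin gene Il33 also rose. None of 7 tested chemokine or 11 tested hyaluronan genes was called, which at the share over all genes given next does not set them apart. In edgeR's quasi-likelihood test on UMIs summed per library and class, with the library as a block, 217 of 13874 gene symbols rose (1.56%) and 14 fell (0.101%), 231 in all (1.66%), at a Benjamini-Hochberg adjusted p below 0.05. Each class had 2 sums, 1 per mouse, and the block took out differences between the mice that both classes shared. At the median gene, the estimated spread came wholly from a trend pooled over all genes. These p-values therefore do not measure how well the 2 mice agreed on a gene. Without the library block 338 rose and 43 fell, and DESeq2 called 61 and 0, with 393 genes at an unadjusted p below 0.05. The median log2 fold change over all tested genes was -0.23. Of the 213 risers that carry a gene name, 197 exceeded the ratios of 1.92 in replicate 1 and 1.34 in replicate 2 given above, and 16 did not exceed both. The risers had been called as high in these same sums, so this count is a description and no check of the calls. The part of the unequal background in these calls was not tested.

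**Figure D2:**
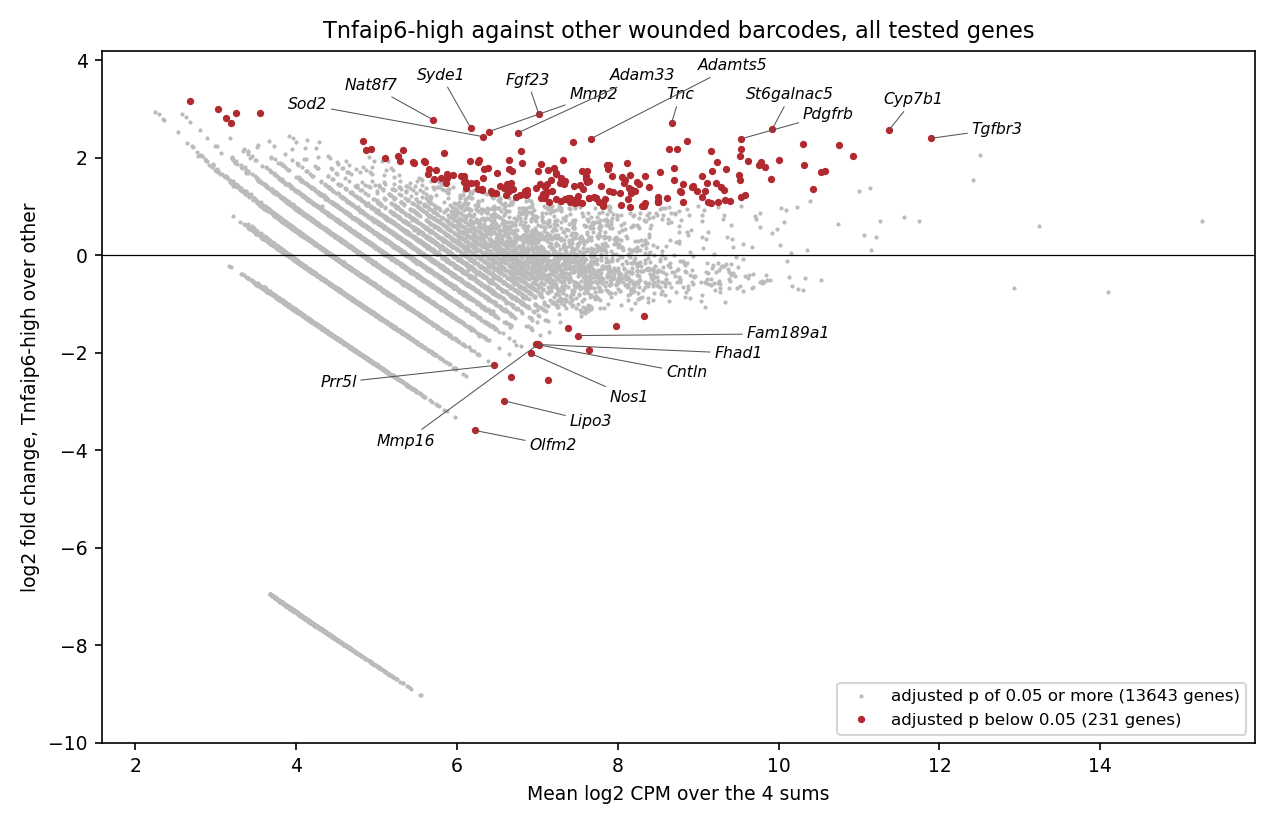
Log2 fold change of Tnfaip6-high over other wounded barcodes (y axis) against mean log2 CPM over the 4 sums (x axis) for 13874 gene symbols, with the 231 at an adjusted p below 0.05 in red. The 12 largest rises and 8 largest falls under the naming rule are labelled, and most red points, 217, lie above 0.

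Tnc had been named as a marker beside Tnfaip6, so its rise was known from earlier results. Its level was 987 and 978 CPM in the Tnfaip6-high of wounded replicates 1 and 2, and 141 and 172 CPM in the others. The log2 fold change was 2.73 ± 0.29 (SE), with adjusted p = 8.77e-17. Observed over length-expected was 43.0 and 30.9, against 3.09 and 4.16 in the others. In whole unwounded libraries Tnc stood at 2.85 and 2.99 CPM. The gene lies on chromosome 4, 63959785 to 64047015 (GRCm38, minus strand), and overlaps the antisense gene 8030451A03Rik. Tnc UMIs occurred in 30 of the 206 and 59 of the 338 Tnfaip6-high barcodes.

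Fgf23 encodes a hormone known mainly from bone that lowers phosphate and active vitamin D. It had no UMI in either unwounded library. In wounds it reached 579.7 and 344 CPM in the Tnfaip6-high and 54.0 and 71.1 CPM in the others. Its log2 fold change was 2.90 ± 0.30 with adjusted p = 1.68e-18. Against gene length, the ratio of observed to expected came to 259 and 112 in the Tnfaip6-high. The gene spans chromosome 6, 127072902 to 127081408 (plus strand), and overlaps no other annotated gene. In the Tnfaip6-high it was seen in 23 and 21 barcodes.

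The promoters of Tnfaip6, Tnc and Fgf23 are printed because Tnfaip6 set the rule and the other genes are a matrix gene and a hormone gene that rose with it. They run from 250 bases before to 50 after an annotated start, 5′ to 3′ on the gene's strand, from RefSeq on GRCm38.p6. Capitals mark a match to the AP-1 motif TGANTCA. The printed Tnc window is set on a start inside the gene span given above. Another Tnc window, chr4:64046966-64047265, is set on the outer start of that span and is not printed.
Tnfaip6, chr2:52037863-52038162, plus strand: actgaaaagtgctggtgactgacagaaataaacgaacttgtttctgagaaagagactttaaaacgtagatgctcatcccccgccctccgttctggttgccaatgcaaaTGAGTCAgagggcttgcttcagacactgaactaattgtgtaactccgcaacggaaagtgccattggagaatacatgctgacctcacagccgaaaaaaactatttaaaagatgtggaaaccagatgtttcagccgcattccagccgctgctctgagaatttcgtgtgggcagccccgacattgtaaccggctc
Tnc, chr4:64046887-64047186, minus strand: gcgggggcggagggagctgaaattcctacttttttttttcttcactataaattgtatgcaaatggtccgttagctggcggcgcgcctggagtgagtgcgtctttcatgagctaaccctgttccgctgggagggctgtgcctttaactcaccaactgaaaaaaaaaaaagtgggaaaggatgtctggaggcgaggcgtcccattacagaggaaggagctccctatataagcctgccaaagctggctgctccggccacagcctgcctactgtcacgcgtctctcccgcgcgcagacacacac
Fgf23, chr6:127072652-127072951, plus strand: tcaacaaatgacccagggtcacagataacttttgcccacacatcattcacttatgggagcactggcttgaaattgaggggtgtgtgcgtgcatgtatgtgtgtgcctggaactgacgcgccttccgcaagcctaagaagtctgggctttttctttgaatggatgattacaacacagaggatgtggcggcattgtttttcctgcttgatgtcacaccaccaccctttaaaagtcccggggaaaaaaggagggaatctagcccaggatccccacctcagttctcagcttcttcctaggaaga

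Both strands were searched for TGANTCA and for the kappaB motif GGGNNTTTCC, and no match of one overlapped a match of the other. The Tnfaip6 window held 1 AP-1 match, 142 bases before the annotated start, and no kappaB match. Of the 12 genes of largest rise, 5 had entries in the promoter table, 6 windows in all, and 0 of these held either motif. Over all 32851 mouse promoters of the table, 7.81% held the AP-1 motif and 1.63% the kappaB motif. These letters are a description of the windows and no evidence of binding.

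Among genes of surface receptors and matrix enzymes, Tgfbr3 had the highest level of the 12 largest rises. It encodes betaglycan, a co-receptor for transforming growth factor beta, and stood at 7363 and 5679 CPM in the Tnfaip6-high against 1245 and 1338 in the others. The log2 fold change was 2.40 ± 0.64, with adjusted p = 0.0155, and 145 and 194 Tnfaip6-high barcodes held a UMI. Pdgfrb, a receptor of platelet-derived growth factor on fibroblasts and mural cells, stood at 1661 and 1345 CPM against 286 and 314 (log2 2.39 ± 0.33, adjusted p = 5.33e-10). The 7 mural markers, Rgs5, Notch3 and Myh11 among them, had summed levels of 188 and 189 CPM against 268 and 265. Mmp2, a gelatinase gene, reached 329 and 256 CPM against 50.9 and 53.1, and Adamts5, an aggrecanase gene, 501 and 567 CPM against 109 and 107. Adam33, a membrane metalloproteinase gene, reached 360.3 and 333 CPM against 57.8 and 69.0. In each of these genes both Tnfaip6-high sums exceeded both others, which their choice as largest rises with 1 direction in both libraries made likely.

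Enzymes of other pathways rose too. Cyp7b1, an oxysterol hydroxylase gene, stood at 5139 and 4334 CPM against 808 and 874 (log2 2.57 ± 0.54, adjusted p = 0.000331). St6galnac5, a sialyltransferase gene, stood at 1676 and 2156 CPM against 274 and 398 (log2 2.60 ± 0.36, adjusted p = 6.40e-10). Syde1 reached 360.3 and 189 CPM against 47.1 and 43.1. Nat8f7 reached 313 and 144 CPM against 34.5 and 31.3, but it belongs to a family of similar genes on chromosome 6 and its counts are uncertain. Gene models overlap St6galnac5, Cyp7b1, Tgfbr3 and Syde1, on the same strand for the first 3, so their counts may include other transcripts. Under 14 other settings, Tnc, Tgfbr3, Cyp7b1, St6galnac5 and Pdgfrb passed in all. Fgf23, Syde1, Mmp2, Adam33, Sod2 and Adamts5 lost the call only when barcodes with any marker of another cell type were left out, and Nat8f7 also when at least 200 genes were required.

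Matrix genes were counted over lists of genes by role, of which only genes with enough UMIs could be tested. Of 15 tested genes of the provisional matrix and its receptors, Tnc and Sparc rose and 0 fell, with a median log2 fold change of 0.79. Sparc, a collagen-binding matricellular protein gene, stood at 533 and 333 CPM against 138 and 131 (log2 1.72 ± 0.29, adjusted p = 2.03e-06). Of 18 tested collagen and proteoglycan genes, Col1a2, Col3a1, Col5a2, Dcn and Fbn1 rose and 0 fell, with a median of 0.72. Col3a1 stood at 313 and 222 CPM against 68.4 and 73.4, and Fbn1, the fibrillin-1 gene, at 1488 and 856 CPM against 327 and 304. Of 18 tested protease and inhibitor genes, Mmp2 and Adamts5 rose, with a median of 0.60. Beside these, the median of all tested genes was -0.23 and 1.56% of them rose. The part that the unequal background, with its ratios of 1.92 and 1.34, has in these and later list medians was not tested. Other settings ended the call of Col5a2 in 6 of 14, of Col3a1 in 3, of Dcn and Sparc in 2 each and of Fbn1 in 1.

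The levels of these matrix genes in intact skin were set beside them as values only, since the libraries differ in depth and background. Col3a1 stood at 2353 and 1934 CPM and Col1a2 at 4163 and 4405 CPM in whole unwounded libraries. The Tnfaip6-high values, 313 and 222 CPM for Col3a1 and 188 and 200.0 CPM for Col1a2, lay under them. Tnc lay the other way, at 987 and 978 CPM against 2.85 and 2.99 CPM.

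Hyaluronan genes were of interest because TSG-6 acts on hyaluronan. Of 11 tested, 0 rose and 0 fell, with a median log2 fold change of -0.38. Over all tested genes, 1.56% rose and 0.101% fell, with a median of -0.23. At those shares, 0 calls among 11 genes does not set them apart. Has1, a hyaluronan synthase gene, stood at 78.3 and 55.6 CPM in the Tnfaip6-high, from 5 UMIs in each library, against 13.8 and 19.5 CPM. Its log2 fold change of 2.00 ± 0.77 did not pass (adjusted p = 0.252). Has2, another synthase gene, had no UMI in the Tnfaip6-high and 11.9 and 18.3 CPM in the others. The 3 counts that a count of 0 allows are 47.0 and 33.3 CPM in the Tnfaip6-high sums, so a difference in Has2 was not detectable at this depth.

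Cytokine genes gave few calls. Il33, the gene of a nuclear alarmin, stood at 470.0 and 167 CPM against 105 and 83.2 (log2 1.72 ± 0.32, adjusted p = 1.72e-05), and it lost the call under DESeq2, when all barcodes had to hold a Malat1 UMI and when none could hold a UMI of another marker list. It was the only riser of 7 tested interleukin, colony-stimulating factor and prostaglandin genes. Of 14 tested cytokine receptor genes only Il1r1 rose, the receptor through which IL-1 acts, at 721 and 489 CPM against 154 and 181 (log2 1.90 ± 0.29, adjusted p = 2.84e-08). All 7 tested chemokine genes had log2 fold changes above 0, with a median of 1.08, and 0 passed, while 9 more of the list had too few UMIs to test. Of all tested genes, 39.1% lay above 0 and 1.56% rose. Cxcl5, a neutrophil attractant gene, stood at 125 and 66.7 CPM against 24.5 and 58.1, and Cxcl3 at 141 and 77.8 CPM against 70.3 and 46.9. Ccl7, a monocyte attractant gene, stood at 31.3 and 144 CPM against 17.6 and 65.8. The Ccl7 sums of the classes overlapped, as the Tnfaip6-high of replicate 1 lay under the others of replicate 2.

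Among signalling genes, Birc3 and Sod2 rose of 14 tested NF-kappaB subunits and feedback genes, with a median of 0.79, beside 1.56% risen and a median of -0.23 over all tested genes. Birc3, an inhibitor of apoptosis gene, stood at 376 and 311 CPM against 113 and 95.3 (log2 1.80 ± 0.30, adjusted p = 1.79e-06). Sod2, the mitochondrial superoxide dismutase gene, stood at 78.3 and 422 CPM against 27.0 and 69.3. It was found in 5 of 206 and 29 of 338 Tnfaip6-high barcodes, so its rise of log2 2.44 ± 0.35 came with a large difference between the mice. Nfkbia, the inhibitor of NF-kappaB, stood at 94.0 and 156 CPM against 45.8 and 82.9 and did not pass (adjusted p = 0.312). Of 7 AP-1 and immediate early genes tested Fosl2 rose, at 219 and 122 CPM against 63.4 and 60.5 (log2 1.48 ± 0.39, adjusted p = 0.0150), a call lost under 5 of 14 other settings. None of 7 STAT3 pathway genes, 16 hypoxia and glycolysis genes or 8 glucocorticoid response genes was called, with medians of 0.35, 0.18 and 0.05. Cald1, whose call was also lost under 5 of 14, was the only riser of 9 contractile genes, whose median was -0.44. Acta2, the smooth muscle actin of myofibroblasts, had 1 UMI in replicate 1 and 0 in replicate 2.

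Of 15 growth factor genes tested, Fgf23 and Tgfb3 rose, and the list's median was -0.05, beside 1.56% risen and a median of -0.23 over all tested genes. Tgfb3 stood at 94.0 and 211 CPM against 50.9 and 57.5 (log2 1.62 ± 0.40, adjusted p = 0.00667), and it lost the call under 6 of 14 other settings. Vegfa had no UMI in the Tnfaip6-high and 17.0 and 18.3 CPM in the others, under the level that a count of 0 allows.

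The cell type marker lists were tested gene by gene in the same fit. Of 20 fibroblast markers, 8 rose (Pdgfra, Pdgfrb, Col1a2, Col3a1, Col5a2, Dcn, Prrx1 and Fbn1) and 0 fell, with a median of 0.74, beside 1.56% risen and a median of -0.23 over all tested genes. Of these 20, 13 had log2 fold changes above 0, beside 39.1% of all tested genes. Of 13 tested keratinocyte markers, 7 neutrophil, 8 macrophage and monocyte and 11 endothelial markers, 0 rose and 0 fell, with medians of -0.28, 0.03, -0.23 and -0.63. The endothelial marker Flt1 stood at 31.3 and 156 CPM against 217 and 181, and the keratinocyte marker Dsp at 62.7 and 156 CPM against 191 and 304.

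The genes that fell were few and near the background in Tnfaip6-high barcodes. Olfm2 had 0 and 1 UMI there, or 0 and 11.1 CPM, against 84.1 and 83.2 CPM (log2 -3.59 ± 0.94, adjusted p = 0.0130). Lipo3, a lipase-family gene, stood at 15.7 and 11.1 CPM against 117 and 104, and Nos1, the neuronal nitric oxide synthase gene, at 15.7 and 44.5 CPM against 144 and 133. Of 14 other settings, 6 ended the call of Olfm2, 4 that of Lipo3 and 7 that of Nos1, DESeq2 among them each time. Observed over length-expected was below 1 in both Tnfaip6-high sums for all 8 largest falls. The part of the unequal background in these falls was not tested.

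Malat1 stood at 7379 and 11057 CPM in the Tnfaip6-high against 1557 and 3349 CPM in the others, and its log2 fold change of 2.06 ± 0.79 did not pass in edgeR (adjusted p = 0.25). It passed under 5 of 14 other settings, DESeq2 among them, with adjusted p = 4.99e-09 in edgeR when both classes were held to the same depth range. In whole unwounded libraries it reached 93734 and 82298 CPM. When only barcodes with a Malat1 UMI were compared in both classes, 121 genes rose, and 111 of them were among the 217.

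The level of several genes was followed across the number of Tnfaip6 UMIs per barcode, as a description around the threshold of the rule. Tgfbr3 was 1109 and 1237 CPM in barcodes with 0 Tnfaip6 UMIs, 3318 and 2966 with 1, and 5117 and 4245 with 2. It was 9613 and 7447 CPM in those with 5 to 9 and 8241 and 8709 CPM in those with 10 or more. Barcodes with 1 Tnfaip6 UMI lay between those with 0 and those with 2 in both libraries. Tnc was 122 and 160.1 CPM at 0 UMIs, 426 and 367 at 1, 1099.9 and 651 at 2, 782 and 855 at 3 to 4, 1012 and 1599.8 at 5 to 9, and 1177 and 1853 at 10 or more. In replicate 1 the levels at 3 to 4 and 5 to 9 lay under that at 2. Fgf23 was 47.5 and 64.2 CPM at 0, 152 and 181 at 1, 335 and 443 at 2, and 1345 and 741 at 10 or more, with lower values of 249 and 166 at 3 to 4 and 5 to 9 in replicate 2. Over the same steps receptor gene density went from 0.527 and 0.477 CPM per kilobase at 0 UMIs to 0.184 and 0.246 at 10 or more, and its part in these levels was not tested.

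**Figure D3:**
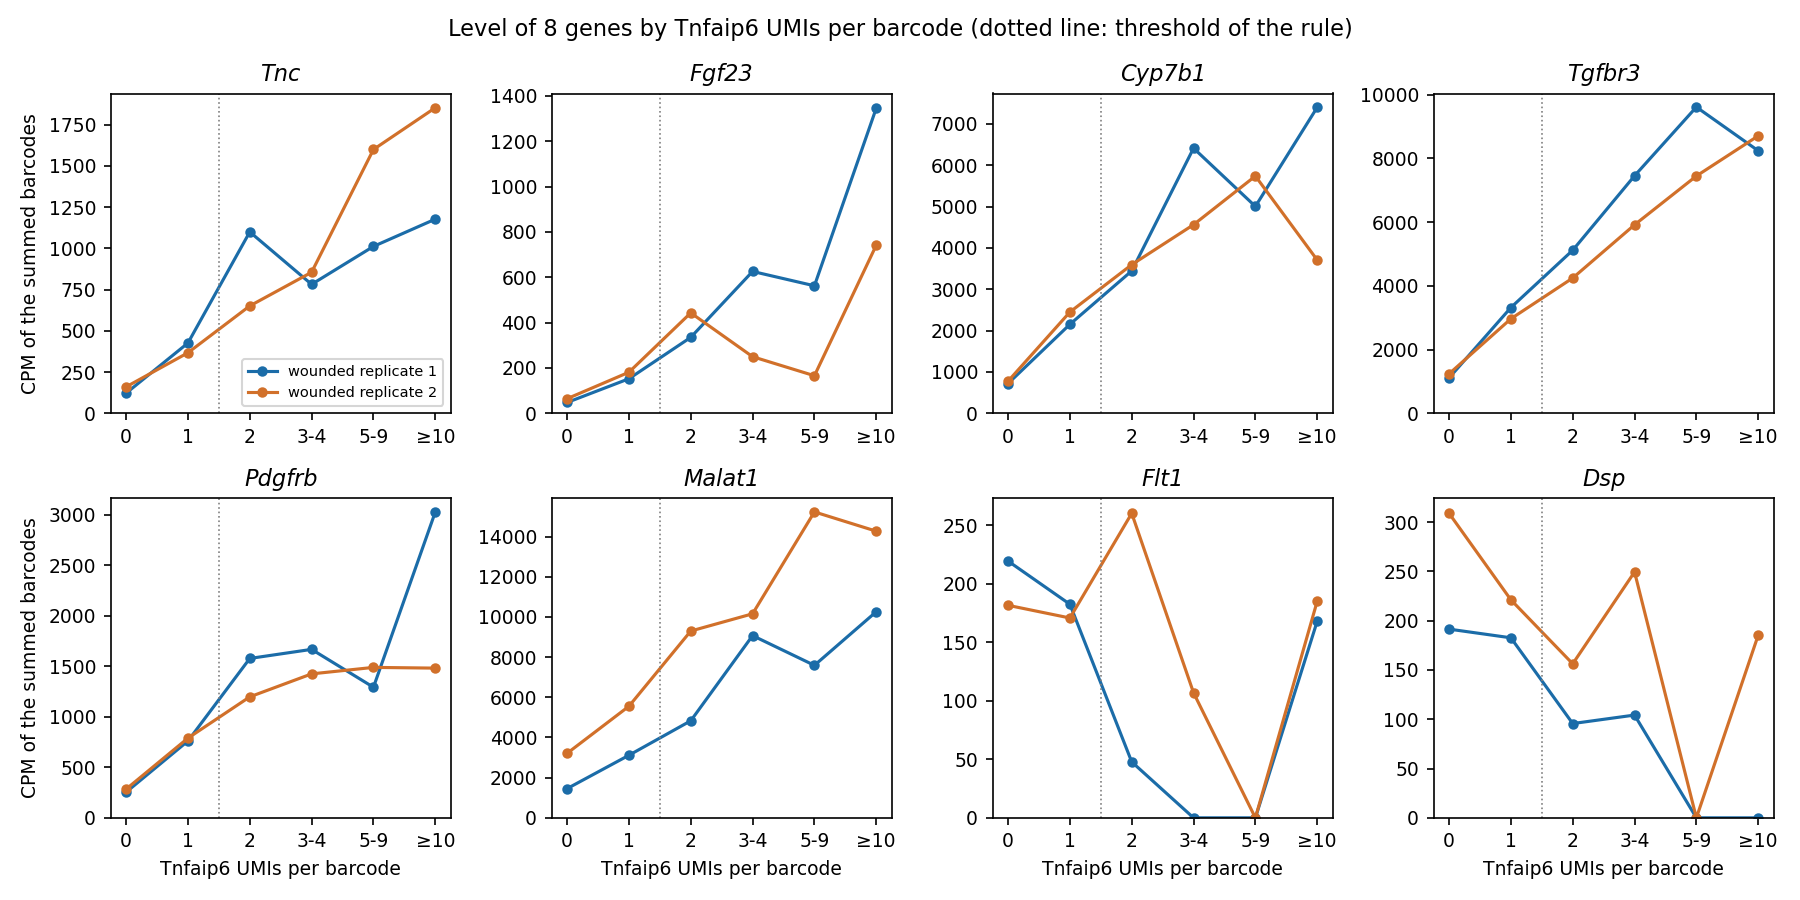
CPM of summed barcodes (y axes) by number of Tnfaip6 UMIs per barcode (x axes) for 8 genes in wounded replicates 1 (blue) and 2 (orange), with a dotted line at the threshold of the rule. Tgfbr3 goes from 1109 and 1237 CPM at 0 UMIs to 8241 and 8709 CPM at 10 or more, while the endothelial marker Flt1 and the keratinocyte marker Dsp show no such course.

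A second comparison took the other wounded barcodes led by the fibroblast list, 847 and 1793 in number, the list that led most often in the Tnfaip6-high. Tnc, Mmp2, St6galnac5, Syde1 and Fgf23 were again among the largest rises, joined by Zc3h13, Casp4, Clic1 and Rack1. Rack1 lost the call under 7 of 13 other settings, Clic1 under 5 of 13, Syde1 under 3 of 14, Zc3h13 and Mmp2 under 2 of 14, and Tnc, St6galnac5 and Casp4 under 1 of 14. The fibroblast markers chose these barcodes and were not tested there. Receptor gene density was 0.536 and 0.492 CPM per kilobase in these barcodes. That lay further from the 0.263 and 0.363 of the Tnfaip6-high than the 0.523 and 0.475 of all others. The share of UMIs beyond the length-following background was 2.02-fold and 1.41-fold larger in the Tnfaip6-high. Malat1 was missing from 64.6% and 52.4% of the fibroblast-list barcodes, and their median depths were 364 and 239 UMIs. The part of this background in the calls was not tested. The edgeR test called 182 of 6723 gene symbols as risen (2.71%) and 9 as fallen (0.134%), 191 in all (2.84%), with a median log2 fold change of -0.07. Without the library block 120 rose and 4 fell, and DESeq2 called 15 and 0, with 234 at an unadjusted p below 0.05. Of the 213 named risers against all others, 206 entered this fit, and the 2 comparisons use the same Tnfaip6-high sums, so they are not independent.

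Tnc in the fibroblast-list barcodes was 141 and 183 CPM, close to its 141 and 172 CPM in all others, and its log2 fold change was 2.77 ± 0.38 (adjusted p = 2.40e-09). Fgf23 was 96.8 and 132 CPM in them (log2 2.14 ± 0.37, adjusted p = 9.21e-06). Fgf23 lost the call under 4 of 14 other settings, DESeq2 and depth matching among them, with a log2 fold change down to 0.94. Cyp7b1 was 1221 and 1644 CPM (log2 1.91 ± 0.56, adjusted p = 0.0296). Pdgfrb, a gene of the list and so untested, was 700.1 and 1169 CPM against 1661 and 1345 in the Tnfaip6-high. Casp4, an inflammatory caspase gene, was 1519.6 and 1245 CPM in the Tnfaip6-high against 309 and 420.0 (log2 2.10 ± 0.41, adjusted p = 0.000155) and 73.8 and 79.0 CPM in unwounded libraries. Il1r1 was 206 and 225 CPM in the fibroblast-list barcodes (log2 1.64 ± 0.36, adjusted p = 0.00139), and it lost the call under 5 of 14 other settings, with a log2 fold change down to 0.55. Zc3h13, the gene of a protein of the RNA methylation machinery, was 658 and 389 CPM in the Tnfaip6-high against 121 and 127 (log2 2.21 ± 0.36, adjusted p = 3.17e-06). Sdc4, a syndecan gene, and Mmp14, which activates the Mmp2 product, passed here with adjusted p = 0.0475 and 0.0466 and lost the call under 7 of 11 and 9 of 12 other settings. Collagen and proteoglycan genes outside the marker list gave 0 calls of 5 tested, with a median of -0.07, beside 2.84% called and a median of -0.07 over all tested genes. Keratinocyte markers stood higher in the Tnfaip6-high here, 909 and 1267 CPM against 444 and 709.7, since the fibroblast-list barcodes were chosen to hold fewer of them, and Trp63, Dsc3 and the sebocyte marker Far2 were called.

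**Figure D4:**
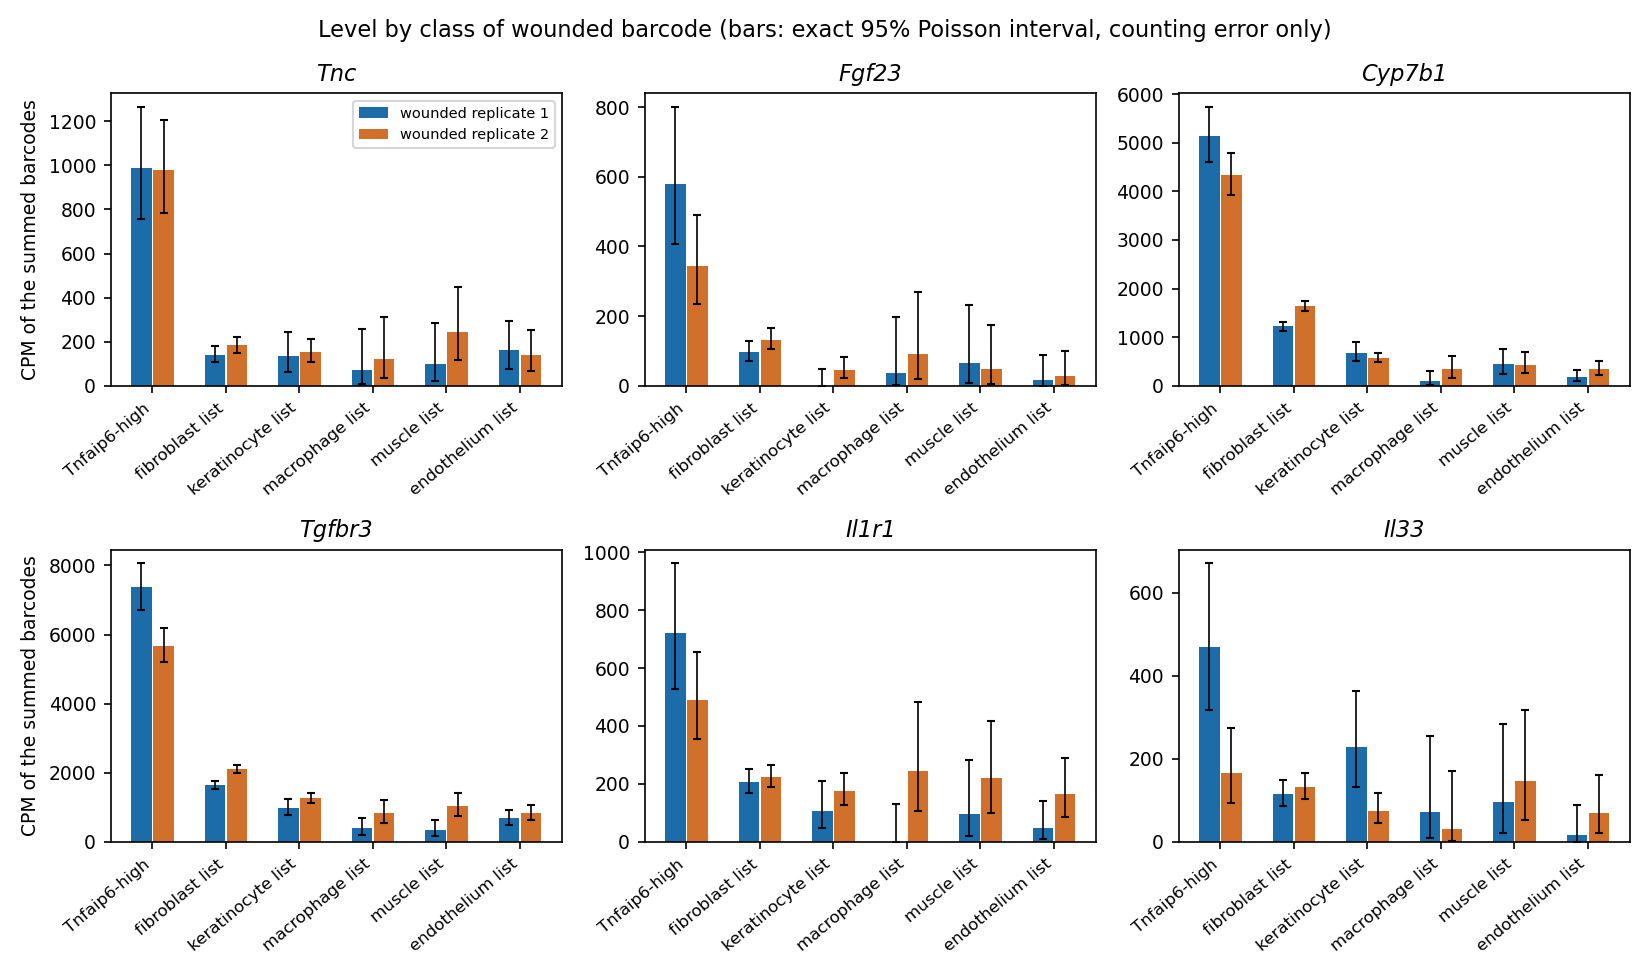
CPM of summed barcodes (y axes, starting at 0) for 6 genes in Tnfaip6-high barcodes and in other wounded barcodes led by 5 marker lists, for wounded replicates 1 (blue) and 2 (orange), with exact 95% Poisson intervals that cover counting error only. Tnc is at 987 and 978 CPM in the Tnfaip6-high and at 141 and 183 CPM in the fibroblast-list barcodes, and Cyp7b1 and Tgfbr3 are next highest in the fibroblast-list barcodes.

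Levels in the other classes led by a marker list are given without a test. Cyp7b1 stood at 682 and 575 CPM in keratinocyte-list, 106 and 337 in macrophage-list, 452 and 438 in muscle-list and 177 and 344 in endothelium-list barcodes, all under the 1221 and 1644 of the fibroblast-list ones. In neutrophil-list barcodes Cyp7b1 was 1049 and 190 CPM, from 8 and 2 UMIs. The counting interval there in replicate 1, 453 to 2066 CPM, included the 1221 of the fibroblast-list ones. Fgf23 was 0 and 45.8 CPM in keratinocyte-list, 35.4 and 91.8 in macrophage-list, 64.5 and 48.6 in muscle-list and 16.1 and 27.5 in endothelium-list barcodes, from 0 to 11 UMIs each. Tnc ranged from 70.7 to 161 CPM in replicate 1 and from 122 to 243 CPM in replicate 2 over the keratinocyte, macrophage, muscle and endothelium lists. Counting intervals of Tnc in these classes overlapped that of the fibroblast-list barcodes in each library, and all lay below that of the Tnfaip6-high. In the 23 and 52 neutrophil-list barcodes Tnc was 393 and 285 CPM from 3 UMIs each, with counting intervals of 81.1 to 1149 and 58.8 to 833 CPM that overlapped those of the Tnfaip6-high.

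Detection among the Tnfaip6-high barcodes was described for Tnc and Fgf23, chosen after their values were seen. Tnc was found in 30 and 59 barcodes, Fgf23 in 23 and 21, and both together in 2 and 5, which was not compared with chance. The median depth was 246 and 210.5 UMIs per barcode, so absence of a UMI does not show absence of the transcript. Pdgfrb was found in 15 of 23 and 9 of 21 barcodes with Fgf23, in 9 of 30 and 24 of 59 with Tnc, and in 74 of 206 and 92 of 338 overall. Cyp7b1 was found in 20 of 23 and 14 of 21 barcodes with Fgf23 and in 17 of 30 and 21 of 59 with Tnc. The barcodes with Fgf23 had median depths of 282 and 258 UMIs and those with Tnc 308.5 and 221. Barcodes with neither, 155 and 263 in number, still held Tgfbr3 at 6947 and 5341 CPM and Cyp7b1 at 4385 and 4694 CPM.

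The 34 and 18 unwounded barcodes that met the same count of Tnfaip6 UMIs were a small comparison, given without a test. They held 8 and 0 Tnc UMIs and 0 Fgf23 UMIs. Pdgfrb stood at 168 and 123 CPM in them and Tgfbr3 at 1035 and 1024 CPM, against 1661 and 1345 and against 7363 and 5679 CPM in the wounded Tnfaip6-high. Cyp7b1 stood at 2009 and 491 CPM, from 167 and 12 UMIs. Malat1 reached 119374 and 101707 CPM in them, and their median depths were 1884.5 and 950.5 UMIs, so depth, background and wounding cannot be told apart here.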

How the data were processed

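The deposited files hold unnormalized UMI counts of 32285 genes in each barcode. The submitters' processing notes name Cell Ranger 5.0.1 and GRCm38. Annotation release, strand and intron counting and barcode calling were not stated in those notes. GENCODE vM21 gave coordinates for 32235 genes. Counts were summed per library and class and tested with edgeR 4.0.16 (R 4.3.3): filterByExpr, TMM, glmQLFit and glmQLFTest with the library as a block, since both classes come from the same mouse. Deviations of the paired sums correlated at 0.058 over all 13877 tested rows and at 0.20 over the 1357 with at least 20 UMIs. The sums held 63831 and 89987 UMIs (Tnfaip6-high) and 1592466 and 3390550 (others). DESeq2 1.42.0 was an alternative, and the script was tested on simulated data. No doublet caller was run. Alternatives changed scaling, filters, thresholds, depth, the block and the barcodes kept. Benjamini-Hochberg adjustment ran over all tested genes. Tnfaip6 itself was left out of the tests. Named genes are, per comparison, the 12 largest rises and 8 largest falls with at least 15 UMIs in at least 5 barcodes of the higher class and 1 direction in both libraries, up to 4 genes per list and 3 per marker list, Tnc and Malat1. Gene models, mt- and ribosomal protein genes were left out. Col1a2, Acta2, the co-detection pairs and the genes followed by Tnfaip6 count were chosen after their values were seen. Barcodes, gene lists and markers were all chosen with earlier results of these data known.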

Additional observations from a re-analysis of the deposited data

How the results depend on the processing

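Counts of calls moved with the settings. Against all other barcodes, 217 rose and 14 fell. Without the replicate block these were 338 and 43, without the low-count filter 103 rose, and DESeq2 gave 61 and 0. At least 3 Tnfaip6 UMIs gave 111 and 27, at least 200 genes 74 rose, and depth matching 41 fell. Leaving out the deepest 1% of barcodes gave 23 fallen, and requiring a Malat1 UMI 121 risen. Keeping only barcodes with no UMI of another marker list, added after seeing the data, gave 21 and 1. Against fibroblast-list barcodes, 182 rose and 9 fell. Without the replicate block these were 120 and 4, without composition scaling 103 rose, without the filter 19 and 4, and with DESeq2 15 and 0. At least 1 Tnfaip6 UMI gave 5 fallen, at least 3 gave 98 risen, depth matching 58 risen, and at least 200 genes 112 and 5. Without the deepest 1% these were 95 and 3, with a Malat1 UMI 27 and 5, and with no other marker list 0 and 1, with 144 genes at an unadjusted p below 0.05. Fewer barcodes enter most of these settings, and the cause of the other shifts was not tested.

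Main risers that were tested again stayed above 0 in every setting, except under the marker-free setting, with 207 of 208 and 112 of 117. There Sparc against fibroblast-list barcodes turned to a log2 fold change of -0.011. The risers had been chosen as above 0 in the same barcodes, so a kept sign was likely and is no check of the calls. Leaving out composition scaling moved the median of all genes from -0.07 to -0.21 in that comparison.

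The share of barcodes meeting the rule was 9.24%, 6.88%, 3.70% and 2.07% with at least 1 UMI in wounded replicates 1 and 2 and unwounded replicates 1 and 2, and 3.07%, 1.23%, 0.144% and 0.0407% with at least 3. Thinned to 150 UMIs it was 2.83%, 1.75%, 0.0144% and 0%, and with at least 200 genes 2.96% in wounded replicate 2. Leaving out 1 replicate leaves 1 sum per class, so it gave values and no test or count.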
